A study of Homo sapiens with 18 samples.

Results

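The tetraploid clone 4N-3 was compared with the diploid clone 2N-3 of RPE1, an immortalised line of human retinal pigment epithelial cells, over the 31421 genes with a value above 0 in at least 3 of the 6 libraries of the pair, of 57773 genes in the deposited table. Asynchronous cells had been exposed to 2.5 µM ZM447439, an inhibitor of Aurora kinases, for 72 h, and single cells of the populations that grew out weeks later were expanded into clones. Ploidy was read by flow cytometry, and each diploid clone came from the same plates as its tetraploid partner, so both clones of this pair have been through the inhibitor and neither is untreated. Each clone is 1 cell's progeny with 3 libraries of polyadenylated RNA (A, B and C), and 6 clones in 3 pairs gave 18 libraries. The comparison is therefore one of 2 clones: differences of ploidy and any other difference between these 2 clones cannot be told apart, and the p-values measure the spread between libraries of a clone.

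Aurora B corrects faulty attachments of chromosomes to the spindle and is needed for the division of the cell body, so that cells exposed to its inhibitor can leave mitosis undivided, with a doubled genome. Newly tetraploid cells of lines with working p53 often stop in the following G1, and p53 acts there in part through CDKN1A, the inhibitor of cyclin-dependent kinases known as p21. A clone that proliferates as a tetraploid has passed that point, and its RNA can be asked which programmes of growth, arrest, adhesion and matrix differ from its diploid partner.

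A pair of libraries stood apart and were followed throughout. In 2N-3 A, 460 genes lay 2-fold or more above both other 2N-3 libraries and 210 below both, of 8767 genes, while the other 5 libraries had between 2 and 10 above and between 4 and 22 below. The deviation of 2N-3 A ran with the length of the transcribed exons: its median was 0.60 (log2) in the quintile of protein-coding genes with the shortest exons and -0.25 in that with the longest, and Spearman's rho was -0.61 over 5957 genes, which share 1 library and are a description. The 27 tested genes for cytosolic ribosomal proteins, which are short, stood at a median of 0.81 above the mean of the 6 libraries in 2N-3 A and between -0.19 and -0.13 in the others. In 4N-3 C, genes of S phase stood 0.52 below that mean (median of 23) and genes of mitosis 0.35 below (median of 33), while 4N-3 A and B were 0.22 to 0.31 above it. The total of reads assigned to genes ranged from 37.5 M in 2N-3 A to 44.0 M in 4N-3 B.

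**Figure D1:**
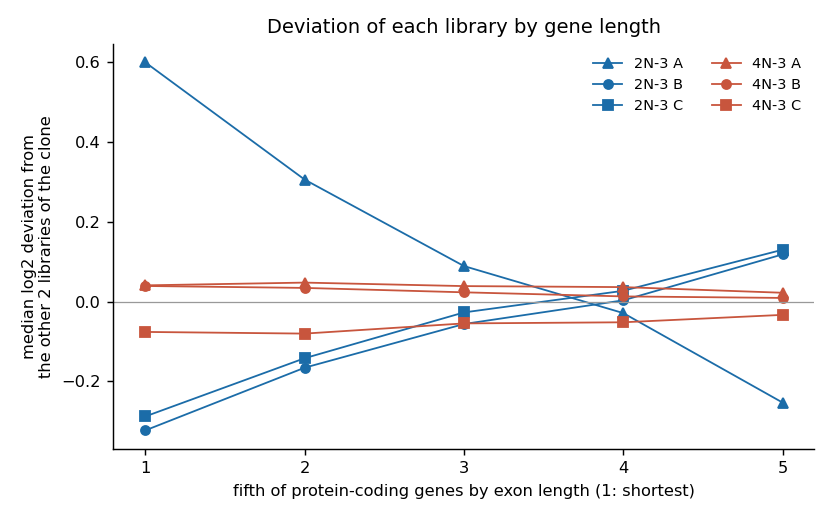
Median deviation of each library from the other 2 libraries of its clone (y, log2) over quintiles of protein-coding genes ordered by exon length (x), blue for 2N-3 and red for 4N-3. Library A of 2N-3 falls from 0.60 to -0.25, and B and C of that clone mirror it because A is among the libraries they are set against.

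The cells carried part of the pigment epithelium's programme. Transcription factors of that tissue differed in level. PAX6 had 10004 reads in 2N-3 and 10057 in 4N-3, OTX2 4019 and 4015 and MITF 2382 and 2283, but LHX2 only 13 and 3. The epithelial keratins KRT8 and KRT18 were present in both clones. Genes of the visual cycle and of pigment were mixed. RPE65 had 13 and 11 reads, TYR 2 and 0, DCT 2 and 0 and TTR none, while RDH5 had 2868 and 3456, LRAT 511 and 506 and SLC45A2 421 and 756, and GPR143 had 3443 reads in 2N-3 and 9 in 4N-3. Of 24 such markers, 3 had 3 reads or fewer over the 6 libraries. The summed level of the 24 was 112 to 166 RPKM in 2N-3 and 119 to 122 in 4N-3, with the highest value in 2N-3 A. By reads per M the largest members were EZR, KRT18 and KRT8 (357, 356 and 298 in 2N-3). The sum is therefore no measure of the pigment and visual cycle genes. Among 25 markers of other cell types, 12 had 3 reads or fewer, and the summed level of all 25, carried by TUBB3 and CD68, was 26.5 to 34.1 RPKM in 2N-3 and 24.6 to 27.1 in 4N-3.

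Few genes of this pair changed by 2-fold. On the deposited RPKM, a value per kilobase of genomic gene span and per M reads, 8767 genes reached 1 RPKM in 3 or more of the 6 libraries, and 24 of them (0.274%) passed an adjusted p of 0.05 in limma with a change of 2-fold or more. Higher in 4N-3 were 11 genes (0.125%) and lower were 13 (0.148%). With no minimum on the fold, 144 rose (1.64%) and 107 fell (1.22%). Over the same set of genes the pairs of 4N-1 with 2N-1 and of 4N-2 with 2N-2 gave 122 (1.39%) and 364 (4.15%) at 2-fold. The count at any fold was 401 without 2N-3 A, 468 without 2N-3 C, 107 without 4N-3 A, 123 without 4N-3 B and 659 without 4N-3 C. Without both 2N-3 A and 4N-3 C, 1119 genes rose (12.8%) and 460 fell (5.25%), and 246 of the 251 genes that passed with all libraries passed again with the same sign. At 2-fold 14 were then higher (0.16%) and 16 lower (0.183%), and with only 2N-3 C left out 46 were called.

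**Figure D2:**
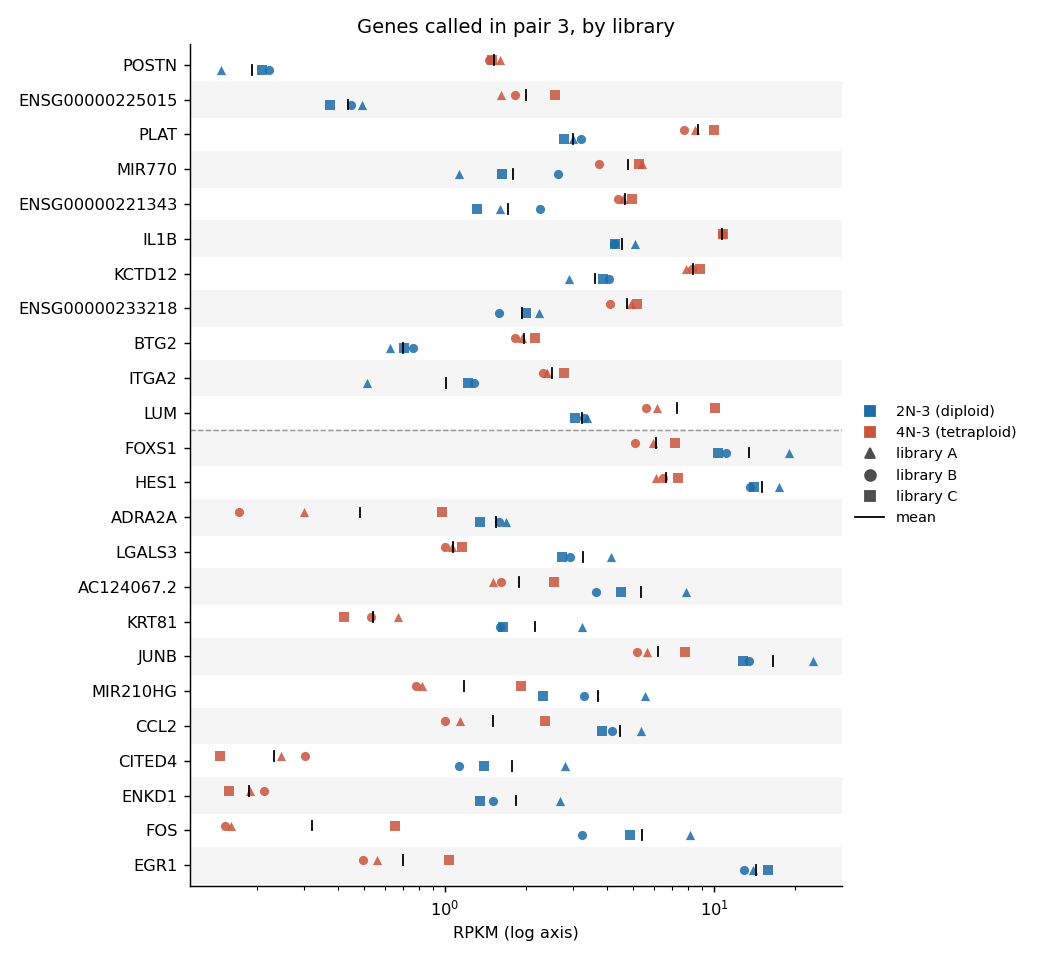
RPKM (x, log axis) of the 24 genes that passed at 2-fold or more, in each of the 3 libraries of 2N-3 (blue) and of 4N-3 (red), with the mean of each clone as a black line. Genes above the dashed line were higher in 4N-3, and in every row the 6 libraries fall into 2 groups that do not touch, as in 16.1% of all tested genes.

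On RPKM the lowest changes among the called genes were those of EGR1 and FOS, which belong to the immediate early genes, the transcription factors that growth factor and stress signals switch on within minutes through serum response factor, its ETS partners and CREB. EGR1, a zinc finger factor, had 14, 12.9 and 15.9 RPKM in libraries A, B and C of 2N-3 and 0.559, 0.498 and 1.04 in 4N-3. All 4N-3 libraries were far below all 2N-3 libraries, with 4N-3 C the highest of its clone. The change was -3.65 ± 0.24 (SE) on the log2(RPKM + 0.5) scale (adjusted p = 1.01e-06), and 2112 reads in 2N-3 B stood against 83 in 4N-3 B. FOS, a partner of JUN in the factor AP-1, had 8.15, 3.22 and 4.87 RPKM in 2N-3 and 0.160, 0.153 and 0.652 in 4N-3, a change of -2.81 ± 0.32 (adjusted p = 0.000143). JUNB, another AP-1 subunit, had 23.3, 13.5 and 12.8 RPKM against 5.63, 5.18 and 7.76, a change of -1.31 ± 0.21 (adjusted p = 0.0026). The groups did not overlap for FOS or JUNB, although 2N-3 A was the highest library for both. JUNB lies within HOOK2 on the opposite strand, which had 19977 and 15421 reads, and whether strand was used in counting is not given in the sources used here.

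The promoters of these 3 genes are shown because serum response factor binds the CArG box and CREB the TGACG core, and the genes fell together. The 250 bases before the RefSeq start (GRCh38.p14) are given on the gene's strand, with CArG boxes and the letters TGACG or their reverse complement CGTCA in capitals.
EGR1, chr5:138465229-138465478, plus strand: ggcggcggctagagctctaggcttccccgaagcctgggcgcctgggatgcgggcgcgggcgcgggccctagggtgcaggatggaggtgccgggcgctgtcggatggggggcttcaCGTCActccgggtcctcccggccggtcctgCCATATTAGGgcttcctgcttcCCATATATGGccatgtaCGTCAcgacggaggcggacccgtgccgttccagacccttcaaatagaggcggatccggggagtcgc
FOS, chr14:75278578-75278827, plus strand: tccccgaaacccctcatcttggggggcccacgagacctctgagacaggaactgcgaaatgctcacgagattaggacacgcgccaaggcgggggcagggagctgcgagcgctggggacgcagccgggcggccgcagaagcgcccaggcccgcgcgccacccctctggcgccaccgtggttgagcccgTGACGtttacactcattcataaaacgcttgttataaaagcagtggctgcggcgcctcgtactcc
JUNB, chr19:12791236-12791485, plus strand: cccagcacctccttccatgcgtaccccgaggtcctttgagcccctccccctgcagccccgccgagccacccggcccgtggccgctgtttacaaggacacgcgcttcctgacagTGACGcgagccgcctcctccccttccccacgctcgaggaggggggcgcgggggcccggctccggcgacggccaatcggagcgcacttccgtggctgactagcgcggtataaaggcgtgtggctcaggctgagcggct
EGR1 held 2 CArG boxes, CCATATTAGG and CCATATATGG, whose first bases lie 105 and 83 bases before the start, and 2 TGACG matches on the reverse strand. FOS and JUNB held 1 TGACG match each and no CArG box in this window, and bases further upstream were not searched. Searched on both strands, a CArG box stood in 1.143% of 27305 RefSeq promoters of this length, 2 or more in 0.033%, and TGACG in 21.66%; a match is a description of the letters only.

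The rest of the immediate early list moved less and not in 1 piece. Of 15 members tested on RPKM, 6 fell, 0 rose, and the median change was -0.24 beside -0.02 over all genes tested. Besides EGR1, FOS and JUNB these were ZFP36, which destabilises cytokine mRNAs (-0.78 ± 0.11, adjusted p = 0.000682), IER2 (-0.74 ± 0.15, adjusted p = 0.0125) and KLF2 (-0.61 ± 0.14, adjusted p = 0.0267). ZFP36 had 3.99, 3.72 and 4.00 RPKM in 2N-3 and 2.09, 2.11 and 1.99 in 4N-3, with libraries of a clone close to each other. FOSL1 and JUN, which were the lowest in 4N-3 C (17.9 RPKM against 33.3 and 34.5 in A and B for FOSL1, and 11.3 against 20.7 and 21.1 for JUN), changed by 0.13 and 0.03 with all libraries and did not pass. Without 2N-3 A and 4N-3 C, JUN rose (0.38, adjusted p = 0.0168) and 7 of the 15 fell, where 5.25% of all genes fell. Bulk RNA does not tell fewer cells with a transcript from less RNA per cell.

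Other targets of growth factor signalling had calls in both directions or few calls. Of 9 genes tested among those induced by ERK signalling, with a median of -0.21, PHLDA1 and ETV5 rose (0.34 and 0.20) and IER3 fell (-0.51, adjusted p = 0.0495). Without both doubted libraries 2 of the 9 rose and 4 fell, where 12.8% and 5.25% of all genes did. DUSP6, a phosphatase that switches off ERK, had 5.99, 5.95 and 6.44 RPKM in 2N-3 and 6.73, 6.54 and 6.56 in 4N-3, which did not pass (0.10 ± 0.07, adjusted p = 0.389). Among 16 genes of the Hippo pathway and its YAP and TAZ targets, CYR61 and CTGF, secreted matricellular proteins, fell by 0.92 ± 0.11 and 0.83 ± 0.10 (adjusted p = 0.000237 and 0.000222), TEAD2 fell by 0.28, and none rose. CYR61 had 152, 124 and 134 RPKM in 2N-3 and 77.3, 73.5 and 65.1 in 4N-3, so the clones were well apart. A further target, ANKRD1, changed by -0.34 ± 0.13 and did not pass (adjusted p = 0.178).

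Among p53 targets the calls were rises. Of 19 tested on RPKM, 9 rose and 0 fell in limma, beside 1.64% and 1.22% of all genes, with a list median of 0.29 beside -0.02 over all genes. Positive changes were seen in 16 of the 19, and the lowest was -0.31, for PLK2 (1 member lower at an unadjusted p under 0.05). CDKN1A had 13.0, 10.6 and 10.3 RPKM in 2N-3 and 22.5, 20.7 and 25.6 in 4N-3. That is a change of 0.99 ± 0.10 on the log2(RPKM + 0.5) scale (adjusted p = 2.63e-05), just short of the 2-fold call. The lowest 4N-3 library was above the highest 2N-3 library. On recovered reads CDKN1A changed by 1.02 ± 0.09 (adjusted p = 1.26e-06 in limma-voom) and was called, a call lost in 3 of 10 alternatives. BTG2, an antiproliferative gene, had 0.626, 0.758 and 0.704 RPKM against 1.94, 1.82 and 2.16 (1.05 ± 0.07, adjusted p = 1.07e-06). MDM2, the ligase that degrades p53, had 2.50, 2.74 and 2.85 RPKM against 4.55, 4.50 and 4.88 (0.69 ± 0.06, adjusted p = 1.68e-05). The others that rose were the nuclease gene AEN (0.67), the RNA-binding ZMAT3 (0.64), RRM2B, a subunit of ribonucleotide reductase (0.51), the death receptor genes TNFRSF10B (0.49) and FAS (0.48), and XPC, a damage sensor (0.29).

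Some p53 targets depended on the doubted libraries. BAX, which permeabilises mitochondria, had 19.4 RPKM in 2N-3 A, 10.2 and 10.3 in B and C, and 14.3, 14.5 and 13.1 in 4N-3, so that the groups overlapped through A alone. With all libraries BAX changed by 0.13 (adjusted p = 0.641), and without 2N-3 A and 4N-3 C by 0.47 (adjusted p = 0.000252). In that setting 12 of the 19 rose, where the share of all genes that rose was 12.8% in place of 1.64%, and PLK2 fell (-0.49, adjusted p = 0.000274), which had 137 RPKM in 4N-3 C against 101 and 98.1 in A and B. By its median over the 19 members the list stood 0.23 above the mean of the 6 libraries in 4N-3 C and 0.10 and 0.09 above it in A and B.

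Genes of the cell cycle depended on the same libraries. None of 33 mitosis genes and none of 23 genes of DNA replication and S phase passed with all libraries in limma (medians 0.10 and 0.03); at an unadjusted p under 0.05 it was 1 mitosis gene, higher, and 0 S phase genes. RRM2, which makes deoxyribonucleotides, had 17.8, 14.8 and 18.2 RPKM in 2N-3 and 24.1, 24.5 and 11.4 in 4N-3, with C of 4N-3 the lowest of all 6. MKI67, a marker of cycling cells with very long transcripts, had 7.95 RPKM in 2N-3 A, 16.2 and 19.4 in B and C, and 21.9, 22.8 and 13.0 in 4N-3, so both doubted libraries were low. Without those libraries 8 of the 33 mitosis genes and 7 of the 23 S phase genes rose and none fell, with medians of 0.25 and 0.38 beside 0.06 over all genes, where 12.8% of all genes rose. On recovered reads the same lists gave 0 of 35 and 0 of 32 with all libraries (1 and 0 at an unadjusted p under 0.05) and 13 and 24 risen, with 0 fallen, without both, where 11.5% of all genes rose and 8.2% fell. Library 4N-3 C was singled out for low values of these same genes. Leaving it out therefore raises both lists in 4N-3 by construction, and these counts are no test of a rise. Neither the part of the length of transcripts nor that of the state of the 4N-3 C culture in these counts was tested.

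Matrix and adhesion genes were among those that rose. POSTN, which encodes periostin, a matricellular protein of connective tissue, had 0.147, 0.222 and 0.209 RPKM in 2N-3 and 1.6, 1.46 and 1.5 in 4N-3. The change was 1.54 ± 0.06 (adjusted p = 5.31e-10), and since the pseudocount damps values this low, the ratio of reads, 868 to 6819, was 7.77 per M reads (95% counting interval 7.24 to 8.35). PLAT, tissue plasminogen activator, had 3.00, 3.21 and 2.77 RPKM against 8.49, 7.70 and 10.0 (1.40 ± 0.12, adjusted p = 8.8e-06). LUM, which encodes lumican, a small leucine-rich proteoglycan that spaces collagen fibrils, had 3.37, 3.29 and 3.04 RPKM against 6.14, 5.60 and 10.0 (1.01 ± 0.14), with 4N-3 C the highest. Of 17 genes for matrix proteins and matrix enzymes, 6 rose and none fell, beside 1.64% and 1.22% of all genes. Those that rose were PLAT, LOX, the enzyme that cross-links collagen (0.60), SPARC (0.54) and the protease inhibitor SERPINE2 (0.39). The others were the membrane metalloproteinase MMP14 (0.32) and FN1, fibronectin (0.86 ± 0.22, adjusted p = 0.0497 in limma).

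The size of the FN1 change depended on the doubted libraries. It had 73.9 RPKM in 2N-3 A, 162 and 149 in B and C, and 211, 192 and 263 in 4N-3, and its change was 0.37 without 2N-3 A and 4N-3 C (adjusted p = 0.0229). ITGA2, the alpha chain of a collagen-binding integrin, likewise had 0.511 RPKM in 2N-3 A, 1.28 and 1.22 in B and C, and 2.40, 2.32 and 2.76 in 4N-3. Its change was 1.03 ± 0.16 with all libraries and 0.71 without both (adjusted p = 0.000508). ITGA5, of the fibronectin receptor, rose by 0.37 ± 0.08 and by 0.44 without both, and 2 of 9 integrin genes rose in all. Of 6 collagen chains tested on RPKM, COL4A1, COL4A2 and COL8A1 rose (0.46, 0.35 and 0.41) and none fell. Over all genes 1.64% rose and 1.22% fell. TGFBI, a matrix protein induced by TGF-beta, went the other way, with 11.1, 10.6 and 9.96 RPKM in 2N-3 and 6.70, 6.64 and 7.89 in 4N-3 (-0.55 ± 0.08, adjusted p = 0.0011).

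Genes of contractile cells showed the reverse dependence. ACTA2, smooth muscle actin, had 0.849, 0.570 and 0.541 RPKM in 2N-3 and 2.00, 1.79 and 1.59 in 4N-3. On the log2(RPKM + 0.5) scale the change was 1.00 ± 0.10 in limma (adjusted p = 2.59e-05), just under the 2-fold call. The pseudocount damps values this low. On recovered reads ACTA2 was called at 2-fold or more and kept the call in 10 of 10 alternatives. ACTA2 overlaps FAS on the opposite strand, which also rose. MYL9, a myosin light chain, had 23.5 RPKM in 2N-3 A, 14 and 13 in B and C, and 29.4, 27.3 and 30.9 in 4N-3, a rise of 0.82 ± 0.16 that was 1.04 without both. TAGLN had 44.9 RPKM in 2N-3 A, inside the 4N-3 range of 38 to 51.1, and 24.1 and 25.9 in B and C. Its change of 0.54 did not pass with all libraries (adjusted p = 0.122) and was 0.93 without both (adjusted p = 1.72e-05). These short transcripts were high and the long ones of FN1 and ITGA2 low in 2N-3 A. Of 18 genes of smooth muscle and the actin cytoskeleton 2 rose with all libraries, where 1.64% of all genes rose. Without both, 8 rose and 1 fell, where 12.8% and 5.25% of all genes did.

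Secreted signals moved in both directions. IL1B, an inflammatory cytokine, had 5.07, 4.25 and 4.27 RPKM in 2N-3 and 10.7, 10.7 and 10.8 in 4N-3 (1.16 ± 0.10, adjusted p = 1.2e-05), and the 4N-3 libraries lay close together. CCL2, which draws monocytes, had 5.37, 4.16 and 3.83 RPKM against 1.14, 1.00 and 2.36 (-1.36 ± 0.20, adjusted p = 0.00146). IL11 fell too (-0.42, adjusted p = 0.0182), and the other 4 of 7 cytokines tested did not pass. LGALS3, galectin-3, had 4.15, 2.92 and 2.72 RPKM against 1.06, 1.00 and 1.16 (-1.24 ± 0.10, adjusted p = 5.9e-06 in limma). It was the 1 of 4 tested galectins that fell, where 1.22% of all genes fell. None of 20 interferon-stimulated and antigen presentation genes passed in limma on RPKM (2 higher and 4 lower at an unadjusted p under 0.05), and on recovered reads OAS2 rose by 0.82.

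Further single genes completed the calls. HES1, a repressor downstream of Notch, had 17.4, 13.6 and 14.1 RPKM in 2N-3 and 6.07, 6.48 and 7.33 in 4N-3 (-1.12 ± 0.16, adjusted p = 0.0008). ENKD1, a protein of microtubules, fell by 1.73 ± 0.14 and CITED4, a coactivator partner of CBP and p300, by 1.57 ± 0.19, both with 2N-3 A the highest library. ADRA2A, an adrenergic receptor, fell by 1.14 ± 0.21, with 0.977 RPKM in 4N-3 C against 0.300 and 0.172 in A and B and 1.35 or more in 2N-3. KRT81, a hair keratin with near-identical relatives that can share its reads, fell by 1.30 ± 0.17 and by 0.95 without both. The pseudocount damps values this low. On recovered reads the changes of ENKD1, CITED4, ADRA2A and KRT81 were -3.21, -2.81, -2.04 and -1.93. KCTD12 rose by 1.11 ± 0.10 and by 0.93 without both. Also called were FOXS1 (-1.05), the noncoding AC124067.2 (-1.25) and 4 RNAs that rose on few reads or without a symbol: MIR770 (22 reads in 2N-3 and 58 in 4N-3), which lies inside MEG3, ENSG00000221343 (11 and 30 reads), ENSG00000225015 and ENSG00000233218.

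Hypoxia genes were lower in part. MIR210HG, the host transcript of a microRNA induced by HIF, had 5.53, 3.28 and 2.32 RPKM in 2N-3 and 0.821, 0.779 and 1.92 in 4N-3 (-1.33 ± 0.26, adjusted p = 0.0126). It was not a member of the list of 19 glycolysis and hypoxia genes, of which ADM (-0.73), BNIP3 (-0.46) and PFKFB4 (-0.36) fell and none rose. Over all genes 1.22% fell and 1.64% rose. BNIP3, a mitophagy receptor, had 4.10, 4.07 and 3.80 RPKM against 2.70, 2.71 and 2.87, with close libraries in each clone. LDHA, lactate dehydrogenase, changed by -0.34, about as much as PFKFB4, and did not pass (adjusted p = 0.0595). Without both doubted libraries 6 of the 19 fell and the glycolytic GPI and HK1 rose (0.23 and 0.18), where 5.25% of all genes fell and 12.8% rose. Of 25 genes of cholesterol synthesis and uptake, SQLE and ACAT2 fell (-0.43 and -0.46). Without both libraries 14 of the 25 fell and 1 rose, where 5.25% of all genes fell.

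Several systems showed no call in limma on RPKM. No member passed among 24 proteasome subunits, 27 ribosomal protein genes and 13 mitochondrially encoded genes, of which 1 was higher, 1 lower and 0 moved at an unadjusted p under 0.05; on recovered reads none of these passed either. The same held on RPKM for 16 genes of the unfolded protein and integrated stress responses (3 higher and 1 lower unadjusted). It also held there for 8 centrosome genes (1 higher) and 16 nuclear pore genes (0). On recovered reads 2 of 20 stress response genes rose, and 1 of 18 centrosome genes and 1 of 26 nuclear pore genes fell, NINL and NUP210. Over all genes 3.62% rose and 3.06% fell on reads, so counts this small are no result about these lists. The ribosomal median was -0.31 with all libraries and 0.04 without both. Among 14 heat shock genes HSPB8 rose (0.40) and HSPA1A and HSPA1B, whose sequences are nearly identical, fell by 0.47 each.

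Counting whole reads opened many more genes, since the deposited length includes introns and puts long genes under 1 RPKM. Each deposited value is a whole number of reads once divided by its step, and a limma-voom fit of these recovered reads tested 21630 genes with 10 reads or more in 3 of the 6 libraries. It called 535 (2.47%), 233 higher (1.08%) and 302 lower (1.4%), of which 482 had been under the RPKM minimum. At any fold 783 rose (3.62%) and 662 fell (3.06%). Without both doubted libraries 224 were called higher (1.04%) and 383 lower (1.77%), among them 436 of the 535.

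The largest of these differences were between reads and almost none. RIN3, a guanine nucleotide exchange factor for Rab5, had 380, 386 and 377 reads in 2N-3 and 0 in every library of 4N-3, at least 385-fold lower against a floor of 3 reads over the clone. NUP210, a membrane protein of the nuclear pore, had 778, 1454 and 1538 reads against 9, 6 and 9, and GPR143, the melanosomal receptor mutated in ocular albinism, 1236, 1080 and 1127 against 5, 4 and 0. HOXA3, a homeobox gene, had 165, 241 and 201 reads against 4, 4 and 1. The zinc finger gene ZNF22 went from 312 reads in all to 7, and BGN, the proteoglycan biglycan, from 761 to 32. GRIK5, a kainate receptor subunit, ENG, a TGF-beta coreceptor, CERS4, a ceramide synthase, and EXD2, an exonuclease, fell by 4.60, 4.18, 4.12 and 3.28 on the log2 scale. These losses were in all 3 libraries of 4N-3, also in those not in doubt.

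Gains were as sharp. MBNL3, a splicing regulator on chromosome X, had 0, 1 and 1 reads in 2N-3 and 336, 389 and 308 in 4N-3, a ratio of 511 per M reads with a wide counting interval (141 to 4223). ABCB1, the drug efflux pump P-glycoprotein, had 2, 2 and 4 reads against 97, 131 and 138. CCND2, cyclin D2, had 19, 26 and 15 reads against 398, 427 and 530 (4.48 ± 0.24, adjusted p = 2.43e-09). TSPAN7, a tetraspanin, and SLC16A9, a monocarboxylate transporter, rose by 4.19 and 4.22. The noncoding AC012501.1, which overlaps RPRM, a p53 target that arrests cells in G2, had 14 reads in all against 1039, and RPRM itself 2 against 46. All 8 UGT1A genes named, which share every exon but the first and so can share reads, rose together by 4.40 to 4.65, with UGT1A6 at 5, 3 and 7 reads against 70, 100 and 192, the last from 4N-3 C.

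For these genes the levels in the other clones were set beside the pair. RIN3 stood at 5.96 to 14.8 reads per M in the 4 clones of the other pairs and 9.39 in 2N-3, and only 4N-3 lacked it. EXD2 was likewise at 10.0 to 11.7 in all clones but 4N-3, at 1.19. ZNF22 and BGN were the reverse: 4N-3 was like the 4 other clones (0.0284 to 0.0587 for ZNF22 and 0.217 to 0.809 for BGN), and 2N-3 was the clone apart at 2.53 and 6.26. NUP210 and GPR143 were also near 0 in 4N-1 (0.0442 and 0.0377) but not in 4N-2 (22.3 and 38.2). HOXA3 was 0.0736 to 0.110 in all 3 tetraploid clones and 4.93 to 10.3 in the diploid ones, and MBNL3 and CCND2 were at 3.75 to 8.34 and 10.9 to 21.7 in the tetraploid clones and at most 0.0469 and 0.492 in the diploid ones. Of the 233 genes called higher on reads, 65 (27.9%) had only 4N-3 outside the range of the other 4 clones, and of the 302 called lower 80 (26.5%), beside 10.3% of all 21630 genes. Only 2N-3 was outside for 52 (22.3%) and 69 (22.8%), no more than the 25.8% of all genes. These counts include the outlying library 2N-3 A and were not made without it, so they do not assign the calls to either clone.

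**Figure D3:**
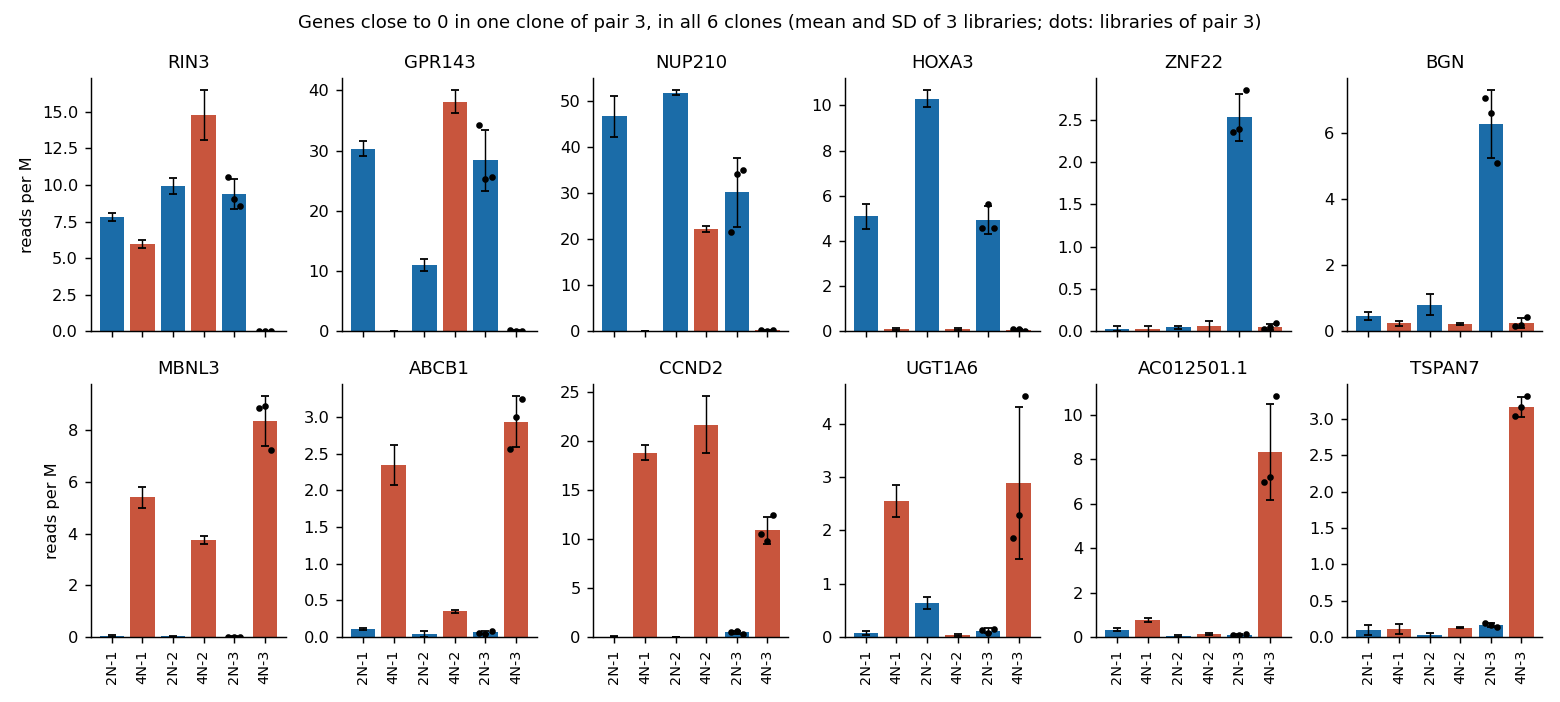
Reads per M (y, separate axes) of 12 genes close to 0 in 2N-3 or 4N-3, as the mean of each of the 6 clones with the SD of its 3 libraries, blue for diploid and red for tetraploid clones, and with dots for the libraries of 2N-3 and 4N-3. RIN3 is missing only from 4N-3, ZNF22 and BGN are high only in 2N-3, and MBNL3 and CCND2 are high in all 3 tetraploid clones.

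Reads also filled in the lists. Of 30 p53 targets 17 rose and 0 fell, beside 3.62% and 3.06% of all genes, with EDA2R, SPATA18 and BTG2 at 1.51, 1.61 and 1.5, SESN2, which restrains mTORC1, at 0.86, and a list median of 0.55 beside 0.02 over all genes. FOSB (-2.24) and EGR3 (-1.06) joined the immediate early genes that fell, 8 of 23. Collagens split, with 7 of 17 risen, among them COL13A1 (0.55) and COL1A2 (1.48, on 20 and 59 reads), and 3 fallen, COL11A1 (-1.08), COL18A1 (-0.31) and COL5A1 (-3.50, on 40 and 3 reads). Small leucine-rich proteoglycans split too: LUM rose, and BGN (-4.65) and FMOD (-1.92) fell. Further falls on few reads were ITGB4, the hemidesmosome integrin (-2.06), ESRP1, an epithelial splicing factor (-2.21), and TGFA, a ligand of the EGF receptor (-1.87). CA9, a carbonic anhydrase induced by HIF, fell by 2.33 and was 1 of 6 of 26 glycolysis and hypoxia genes that fell, with none risen.

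**Figure D4:**
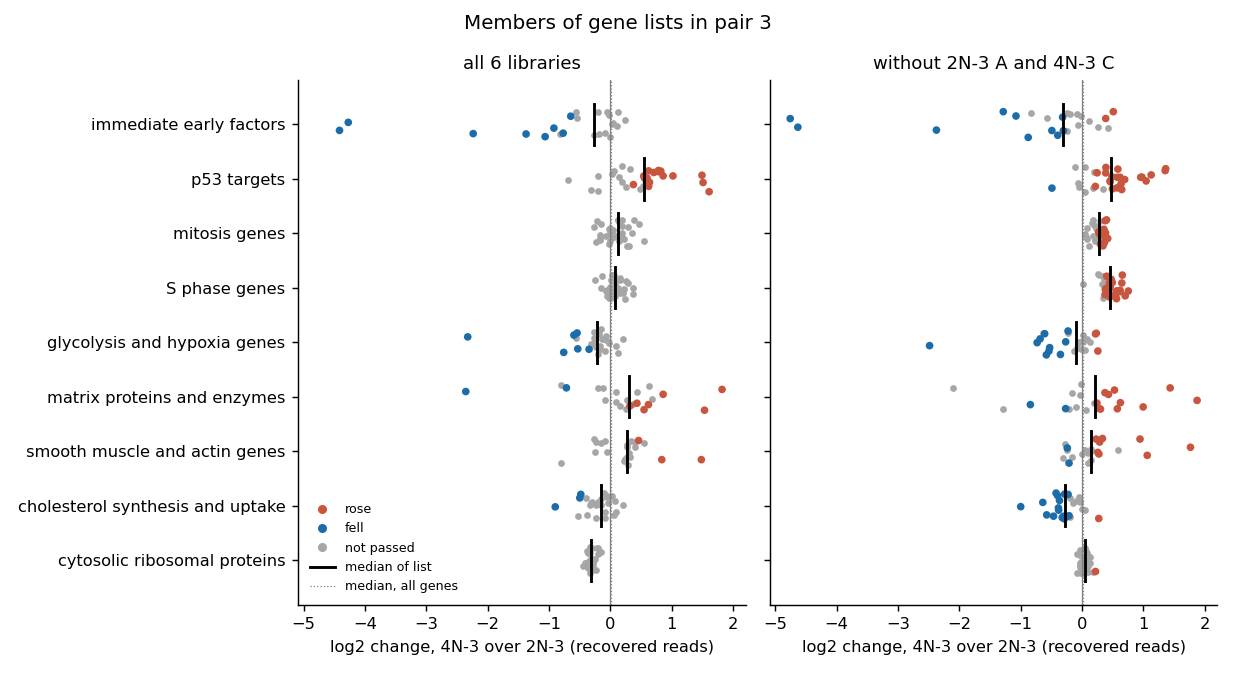
Log2 change from 2N-3 to 4N-3 on recovered reads (x) of each tested member of 9 gene lists, with all 6 libraries on the left and without 2N-3 A and 4N-3 C on the right, red for risen, blue for fallen and grey for members that did not pass, with the list median as a black bar. The p53 targets are shifted to the right and EGR1 and FOS far to the left in both panels, while the S phase genes pass only on the right. That panel leaves out 4N-3 C, which was singled out for low S phase and mitosis genes.

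The change of this pair was set against the mean change of the other pairs, which share no library with it; the clones of pair 2, unlike these, had been stained with a Hoechst dye before cloning. The difference passed at any size for 830 of 8767 genes (9.47%) and at 2-fold for 85 (0.97%), and for 1098 at 2-fold on recovered reads (5.08%). The count of 85 was 146 without 2N-3 B and 151 without 2N-3 C. POSTN rose more here than elsewhere, by 1.28 (adjusted p = 6.71e-08), and the pairs themselves gave 0.88, -0.35 and 1.54 in order. The pseudocount damps these values too. POSTN stood at 5.21 reads per M in 2N-2 and 0.129 in 4N-2, and on recovered reads the pairs gave 1.35, -5.37 and 2.99. EGR1 fell more, by 2.44 (adjusted p = 0.000117), but the other pairs were not alike: it changed by 0.99 with 4N-1 and by -3.39 with 4N-2, which was as low as 4N-3 (2.74 and 2.67 reads per M, against 32.7 to 64.4 in the other 4 clones). FOS was likewise at 1.09 and 1.11 reads per M in 4N-2 and 4N-3 and at 14.8 to 26 in the other 4 clones, and JUNB at 11.1 and 11.2 against 25.2 to 30.0, with a difference for JUNB that did not pass (-0.72, adjusted p = 0.091). CTGF changed by 1.29 with 4N-1 and by 0.21 with 4N-2, and its fall here differed from them by -1.59 (adjusted p = 1.94e-06), as did that of CYR61 by -1.35. KLF2 changed by 0.65 and 1.22 in the other pairs and fell here, a difference of -1.55 (adjusted p = 6.19e-05).

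For p53 targets most calls were rises in every pair, and the size differed. On RPKM 13 of 19 rose with 4N-1 and 16 with 4N-2, and 1 fell with 4N-2, beside 9.75% and 20.1% of all genes that rose, and the medians were 0.40, 1.03 and 0.29 in pairs 1, 2 and 3. The difference test found 8 of 19 lower in pair 3 and none higher, where 9.47% of all genes differed in either direction. CDKN1A, at 526 reads per M in 4N-2, 333 in 4N-1 and 248 in 4N-3 over 122 to 152 in the diploid clones, differed by -0.50 (adjusted p = 0.0154). Mitosis genes had opposite calls in the other pairs. With 4N-1 32 of 33 fell, where 10.6% of all genes did, and with 4N-2 17 rose, where 20.1% did. None passed here. On RPKM 3 of 33 differed upwards in pair 3, near the 9.47% of all genes that differed in either direction. On recovered reads 15 of 35 differed upwards and 0 downwards. The share of all genes that differed at any size on reads is not given here. Cholesterol genes fell in the other pairs, 15 and 23 of 25 where 10.6% and 15.9% of all genes fell. In pair 3, 16 of 25 differed upwards and 1 downwards, beside 9.47% of all genes in either direction. Set against the mean of the 6 libraries, the list median was 0.14 in 4N-3 C and -0.13 and -0.19 in 4N-3 A and B. Most of the list fell in this pair too without 2N-3 A and 4N-3 C, and the difference in that setting is not given here.

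Along the chromosomes, chromosome 12 stood apart once the doubted libraries were left out, and it was singled out after the values were seen. Over the 11708 genes that averaged at least 300 reads, the 676 genes of chromosome 12 had a median change of 0.15 against 0.03 for all genes, an offset of 0.126 from the other chromosomes and of 0.0863 without 2N-3 A and 4N-3 C. With all libraries it was not alone: the offset was -0.134 for chromosome 19, 0.106 for chromosome 13 and -0.0938 for chromosome 22, which were -0.00526, 0.00283 and 0.0156 without both. By library the offset of chromosome 12 was -0.08, -0.05 and -0.04 in A, B and C of 2N-3 and 0.06 in each library of 4N-3. With both doubted libraries left out every other chromosome lay within 0.03 of the median of all, 76.0% of the genes of chromosome 12 were above 0 against 59.8% of all genes, and 34.2% rose against 16.7%. In pairs 1 and 2 the offset was 0.015 and 0.008. In that setting 14 of 17 windows of 40 genes or fewer had a median over 0.1, against 24 of 277 windows elsewhere. The lowest window of chromosome 12 was at 0.05, close to the median of 0.04 over all genes, and with all libraries 2 of the 17 were below 0. Whether the number of copies of chromosome 12 differs between the clones was not tested.

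**Figure D5:**
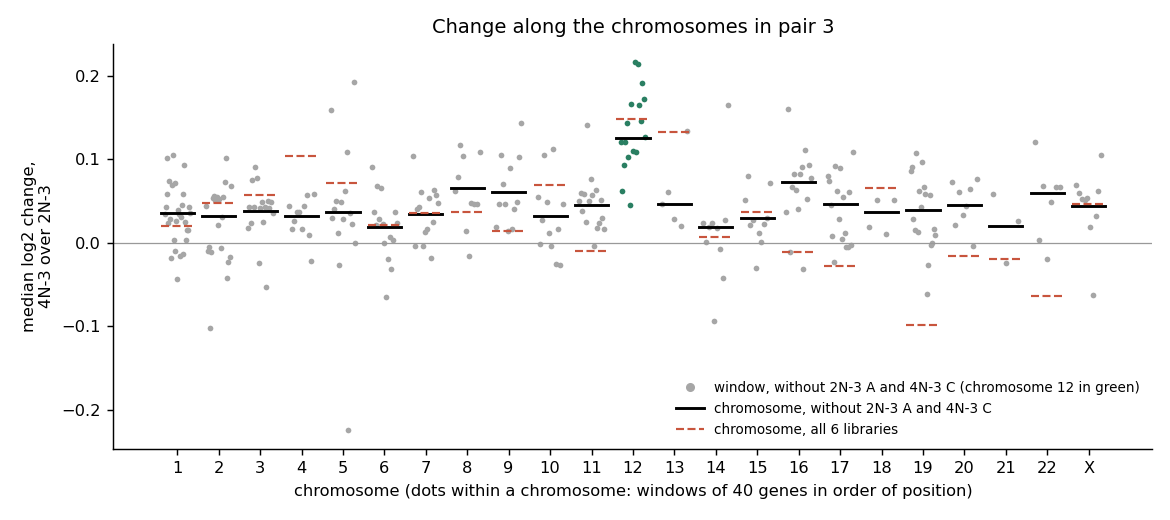
Median log2 change from 2N-3 to 4N-3 (y) of windows of 40 genes (dots) and of whole chromosomes (black bars) without 2N-3 A and 4N-3 C, and of whole chromosomes with all 6 libraries (red dashes), over genes that averaged at least 300 reads. Of the 17 windows of chromosome 12 (green dots) 14 lie over 0.1, with a median of 0.13 over windows, and 24 of 277 windows elsewhere do.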

How the data were processed

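RNA of 6 libraries (A, B and C of clones 2N-3 and 4N-3) was analysed within a series of 18. Per the labels, polyadenylated RNA was sequenced from stranded TruSeq libraries. Per the submitters' processing notes, CASAVA 1.8.2, TopHat2, edgeR and the build hg19 were used. The authors deposited RPKM values for 57773 Ensembl genes; annotation release and use of strand are not given in the sources used here. For 19218 of 24742 matched genes with over 50 reads the length behind the RPKM equals the genomic span, introns included. Whole reads were recovered for 100% of the values above 0 (tolerance 0.01 reads), with the divisor of each library (36.1 to 43.9 M in this pair) as its size. GENCODE v29 (GRCh38) gave names and positions for 52338 of the genes, and RefSeq the promoters.

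The main test was limma 3.58.1 (R 4.3.3) on log2(RPKM + 0.5), with 6 clone means over all 18 libraries with a trend in the spread, two-sided with Benjamini-Hochberg adjustment, for genes with 1 RPKM in 3 of the 6 libraries. Calls needed both an adjusted p under 0.05 and a 2-fold change, and the difference from pairs 1 and 2 was a contrast of the same fit. The limma-voom fit of recovered reads was the alternative and called 535 of 21630 genes. Scripts were tested on simulated data. Counts of single reads carry counting error only, and intervals of read ratios are exact at 95%.

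Named genes were the up to 15 largest called changes per direction with libraries that do not overlap and 2 RPKM or more (300 reads or more on reads) in the higher clone, called members of 34 gene lists with up to 4 more per list, and the smallest adjusted p for the difference from the other pairs. Further list members in the text were picked after their values were seen. The comparison, the members and the lists were chosen with earlier results of these data known. Alternatives were other pseudocounts, minimums, scalings, weights, a replicate block, and fits without each library and without both 2N-3 A and 4N-3 C.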

Additional observations from a re-analysis of the deposited data

Results flagged for a closer look

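For 15 of the 24 called genes the change from 2N-3 to 4N-3 differed from the mean change of the other pairs in a limma contrast over 18 libraries (adjusted p from 6.71e-08 to 0.0429). Higher than in the other pairs were ENSG00000221343 by 1.78 (log2, on 11 and 30 reads), LUM by 1.63, POSTN by 1.28, KCTD12 by 0.84 and IL1B by 0.73. Lower were EGR1 by -2.44, FOS by -1.87, ENKD1 by -1.45, CITED4 by -1.28, KRT81 by -1.11, HES1 by -0.66 and LGALS3 by -0.61. BTG2 (-0.79), ENSG00000225015 (-1.13) and ENSG00000233218 (-1.11) had positive changes in all 3 pairs and smaller ones in this pair. For several of these genes the other pairs had opposite signs, so that the mean of those pairs describes neither. In pairs 1 and 2 LUM changed by 2.14 and -3.38, EGR1 by 0.99 and -3.39, FOS by 0.80 and -2.69. HES1 changed there by 1.2 and -2.11, ENKD1 by -0.94 and 0.38, and CITED4 by -1.26 and 0.67. The same held for POSTN (0.88 and -0.35, damped by the pseudocount) and KCTD12 (0.73 and -0.19). IL1B changed by 0.91 and by -0.04, close to 0. Groups of 3 libraries are too small for a test of single outlying libraries.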

How the results depend on the processing

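The number of calls depended on the processing. At 2-fold, 24 genes were called on RPKM; there were 42 with a pseudocount of 0.1, 37 with array weights (0.02 for 2N-3 A and 0.12 for 4N-3 C), 2 with only the 6 libraries of the pair in the fit, 535 on recovered reads, 251 at any fold, and 21 to 46 when 1 library was left out. At any fold the count of 251 became 1337 with no minimum, 3621 with array weights, 1445 on recovered reads, 2 with only the 6 libraries, 1579 without both 2N-3 A and 4N-3 C, and 107 to 659 without 1 library. The difference from the other pairs gave 85 genes, 55 with a pseudocount of 1, 1098 on recovered reads, 65 to 151 without 1 library, and 146 and 151 without B or C of 2N-3. On recovered reads 535 became 310 with a minimum of 50 reads, 264 with only the 6 libraries, and 437 to 751 without 1 library. The offset of chromosome 12, 0.126, was 0.0863 without both libraries and 0.0922 to 0.129 without 1. With the letters as a replicate block 21 genes were called and 92 passed at any fold; same-letter libraries of the clones had correlations of deviations of 0.02, -0.13 and -0.10, so the letters do not pair them. No named gene changed sign: 754 of 851 fits of named genes under alternatives kept the call and 97 lost it. Most named genes were picked because they were called, many also for libraries that do not overlap. For the latter, leaving a library out cannot reverse the direction, so the kept signs are no separate support. Of the 24 called on RPKM, 17 kept it without both libraries; the 7 others were MIR770 (0.95), KCTD12 (0.93), BTG2 (0.95), ITGA2 (0.71), LUM (0.80), KRT81 (-0.95) and FOXS1 (-0.89). The cause of these shifts was not tested. With 3 libraries of 1 clone each, no statement reaches beyond these clones.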
